A study of Mus musculus with 23 samples.

Results

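Immediate early genes are switched on within minutes of a signal, without new protein synthesis. The 10 described here, Fos, Fosb, Jun, Junb, Jund, Egr1, Nr4a1, Dusp1, Ier2 and Atf3, were taken by symbol from the 23725 genes of the deposited count table, and all 10 have a line in it. Fos, Fosb, Jun, Junb and Jund encode subunits of the dimeric transcription factor AP-1, and Atf3 a related leucine-zipper factor. Egr1 encodes a zinc-finger factor and Nr4a1 an orphan nuclear receptor. Dusp1 encodes a phosphatase that switches off MAP kinases, and Ier2 a nuclear protein of the early growth-factor response.

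RNA was sequenced from E6.25 mouse embryos, which have implanted a short time before. A library is a pool of lysates of 6 or more embryos out of 2 to 3 litters, put together once each embryo had been genotyped. The epiblast (E), the source of the body of the embryo, and extra-embryonic tissue (ExE) were each taken from wild-type (wt) embryos and from heterozygous (Tet1gt/wt) and homozygous (Tet1gt/gt) embryos with a gene trap of Tet1, a dioxygenase of DNA methylation. There were 4 libraries per group, except homozygous ExE with 3 because a pool was lost, which makes 12 E and 11 ExE libraries. Strain, sex and the site of the trap in the gene were not stated in the labels.

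The pathway from signal to immediate early gene is well known. Growth factors act through the kinases ERK and RSK on SRF and its ternary complex partners, and cyclic AMP and stress kinases act on CREB and ATF factors, which bind TGACG or the full palindrome TGACGTCA. At this stage FGF4 from the epiblast signals to the neighbouring extra-embryonic ectoderm. Handling, warming and dissociation of tissue are also known to induce these genes. AP-1 subunits have known roles in trophoblast, where Junb and Fosl1 are needed for the placenta.

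The promoters below are those of the 4 members whose ExE libraries all lay above the E libraries, shown to compare their TGACG letters with the promoter of Jun, which was lower in ExE. Each is the 250 bases before the RefSeq start (GRCm38.p6), 5′ to 3′ on the gene's strand, with TGACG or its reverse complement CGTCA, and TATAAA, in capitals. Fos lies at chr12:85473640-85473889 (+), Junb at chr8:84978749-84978998 (-), Nr4a1 at chr15:101266596-101266845 (+), Dusp1 at chr17:26508473-26508722 (-) and Jun at chr4:95052223-95052472 (-).
Fos: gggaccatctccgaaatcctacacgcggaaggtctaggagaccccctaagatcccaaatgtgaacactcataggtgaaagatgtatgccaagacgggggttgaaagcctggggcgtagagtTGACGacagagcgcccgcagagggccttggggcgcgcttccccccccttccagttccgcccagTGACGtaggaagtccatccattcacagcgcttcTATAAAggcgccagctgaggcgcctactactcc
Junb: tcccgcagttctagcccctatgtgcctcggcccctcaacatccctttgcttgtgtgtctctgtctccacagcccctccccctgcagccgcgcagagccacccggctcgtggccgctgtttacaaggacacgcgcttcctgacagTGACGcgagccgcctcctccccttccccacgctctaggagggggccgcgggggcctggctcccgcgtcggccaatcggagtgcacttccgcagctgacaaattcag
Nr4a1: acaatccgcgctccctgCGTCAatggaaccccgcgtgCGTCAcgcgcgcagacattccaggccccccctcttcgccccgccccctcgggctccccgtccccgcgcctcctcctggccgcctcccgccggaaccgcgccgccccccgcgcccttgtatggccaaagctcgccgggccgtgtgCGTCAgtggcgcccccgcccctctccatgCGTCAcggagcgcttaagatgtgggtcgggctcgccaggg
Dusp1: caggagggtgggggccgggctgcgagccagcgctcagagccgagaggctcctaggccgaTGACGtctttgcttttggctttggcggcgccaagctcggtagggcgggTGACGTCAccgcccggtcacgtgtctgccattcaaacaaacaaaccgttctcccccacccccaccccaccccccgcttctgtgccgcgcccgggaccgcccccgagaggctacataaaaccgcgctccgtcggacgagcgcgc
Jun: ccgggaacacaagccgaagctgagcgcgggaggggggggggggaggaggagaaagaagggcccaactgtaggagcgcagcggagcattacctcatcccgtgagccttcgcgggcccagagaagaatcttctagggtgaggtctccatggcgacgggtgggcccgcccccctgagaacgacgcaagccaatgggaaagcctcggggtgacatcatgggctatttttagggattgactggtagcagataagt

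On either strand TGACG was found 2 times in the Fos window, 1 time in Junb, 4 times in Nr4a1 and 3 times in Dusp1, where TGACGTCA occurs 1 time and holds a TGACG on each strand. Jun had 0 exact matches, but its window holds TGACATCA, which is 1 letter away from TGACGTCA. Near matches were not counted in any window, so a 0 covers the exact letters only. Of 32851 RefSeq promoter windows of this length, 17.77% held TGACG and 1.546% held TGACGTCA. TATAAA, held by 12.37% of windows, was found only in Fos among these 5. A match describes letters and shows no bound factor. The Fosb and Atf3 windows each held TGACG 1 time. The Jund window held 0, and no window was used for Egr1 or Ier2. These windows lie at the RefSeq start, which is the start of the GENCODE gene for Fos and Jun, 30 bases from it for Junb and 6 for Fosb. It is 1210 bases from it for Jund, 12577 for Nr4a1, 34706 for Atf3 and 53656 for Dusp1, so other starts of those genes were not read.

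Several facts on the libraries bear on the members. The libraries hold 4912215 to 9494814 counts each, and a count of 0 allows up to 3 counts, or 0.316 to 0.611 CPM, for counting error only. CPM is a count relative to the library total, scaled here by TMM. In 3 libraries short and GC-rich transcripts read higher, namely pool 4 of heterozygous E, pool 3 of homozygous E and pool 3 of homozygous ExE. There the slope of a gene's deviation per 10% of GC content was 0.67 to 0.76 on the log2 scale, against -0.34 to 0.26 in the other 20. Markers went with the tissue labels. Pou5f1, a pluripotency factor, was at 869 ± 155 CPM in E and 124 ± 127 CPM in ExE (SD, n = 12 and 11), and Cdx2, a trophoblast factor, at 10.7 ± 11.5 and 144 ± 26.8 CPM. Tet1 itself was at 173 ± 31.7, 124 ± 38.6 and 81.1 ± 24.8 CPM in wt, heterozygous and homozygous E (SD, n = 4 each), and at 96.0 ± 13.7, 48.1 ± 7.50 and 27.8 ± 8.74 CPM in the same order in ExE (SD, n = 4, 4 and 3). Bulk RNA cannot tell fewer cells of a type from less RNA per cell.

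Fos, Junb, Nr4a1, Egr1 and Dusp1 were higher in ExE than in E, Jun and Ier2 were lower, and Jund and Atf3 did not pass the test. Thus 5 of the 9 members tested were called higher and 2 lower by edgeR at an adjusted p under 0.05, in a comparison where 46.1% of 13595 genes were called, 22.1% higher and 23.9% lower. The share of members called lower, 22.2%, was thus near that of all genes. The median log2 fold change of ExE over E was 1.22 over the 9 members and -0.02 over all genes tested. Every ExE library lay above every E library for Fos, Junb, Nr4a1 and Dusp1, as for 4.19% of genes tested, and no member had every ExE library below every E library, as 3.47% of genes did. The 9 members passed a filter on low counts. Fosb did not, with 10 counts in 6 of the 23 libraries and at most 0.405 CPM in any of them.

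**Figure D1:**
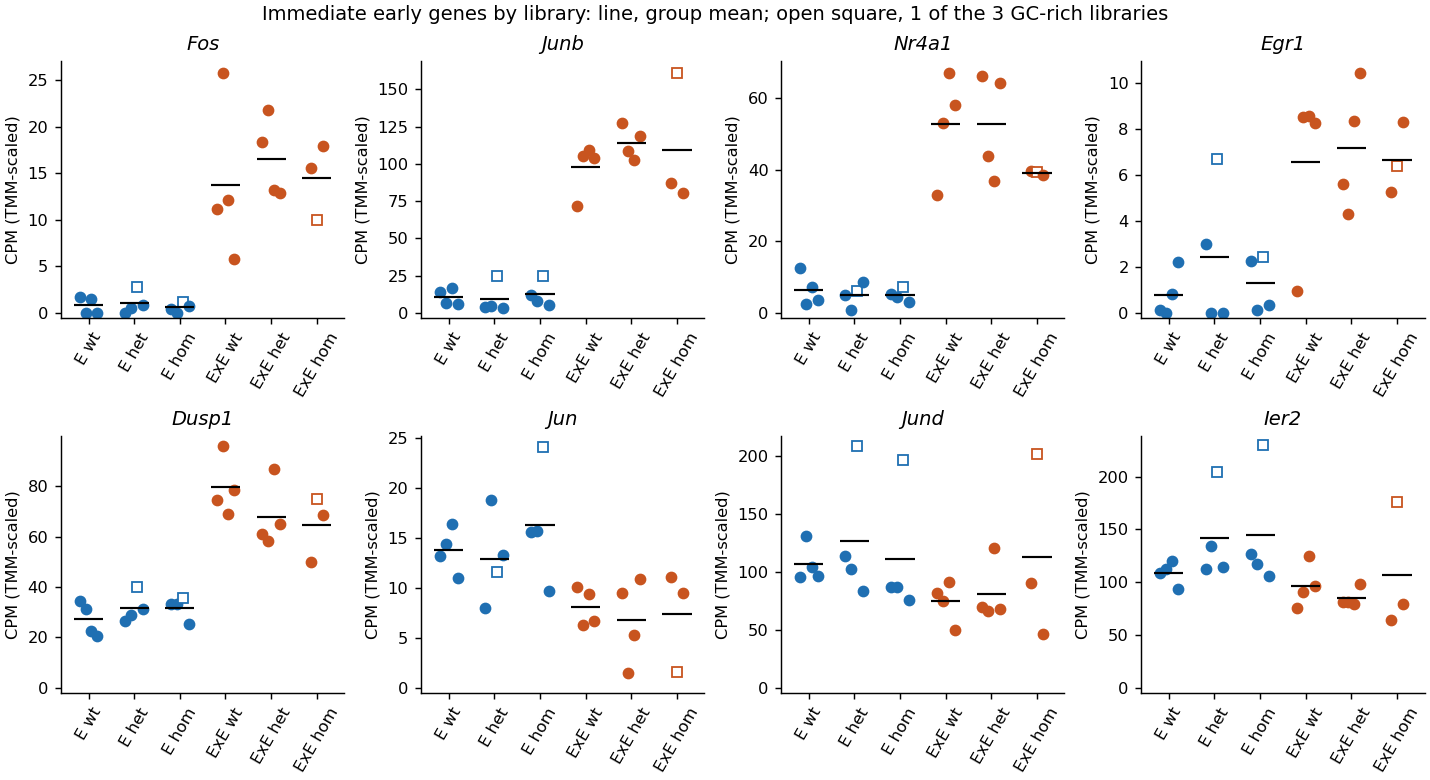
Level of 8 members in each library, in TMM-scaled CPM (vertical axes, linear), by tissue and genotype. Each point is 1 pooled library, the line is the group mean, and open squares are the 3 libraries in which GC-rich transcripts read higher. Fos, Junb, Nr4a1 and Dusp1 show no overlap of E (blue) and ExE (orange), while Jund and Ier2 are highest in the open squares.

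Fos, whose product pairs with JUN proteins to form AP-1, had the largest difference of the members. Its gene lies at 85473890 to 85477273 of chromosome 12 (plus strand, GRCm38, GENCODE M21, as for the positions below). Values per library are given in the order of the pool numbers, which were 1, 2, 4 and 5 in wt, 2, 3, 4 and 5 in heterozygous E, 1, 2, 3 and 5 in heterozygous ExE, 1 to 4 in homozygous E and 1, 3 and 4 in homozygous ExE. The E libraries had 1.71, 0, 1.49 and 0 CPM in wt, 0, 0.461, 2.82 and 0.788 CPM in heterozygous and 0.449, 0, 1.21 and 0.679 CPM in homozygous embryos. The ExE libraries had 11.2, 25.8, 12.1 and 5.81 CPM in wt, 18.4, 21.8, 13.2 and 12.9 CPM in heterozygous and 15.5, 10.03 and 18.0 CPM in homozygous embryos. The lowest ExE pool, wt pool 5, thus stood above the highest E pool, heterozygous pool 4, and 4 E libraries had no Fos count at all. The means were 0.800 ± 0.871 CPM in E (SD, n = 12) and 14.97 ± 5.69 CPM in ExE (SD, n = 11). On the log2 scale ExE was higher by 4.29 ± 0.58 (edgeR adjusted p = 3.17e-06). The 12 E libraries together held 65 Fos reads, so the E level rests on 0 to 16 reads per library. Without the 3 GC-rich libraries the log2 fold change of Fos was 4.97 ± 0.60 (edgeR adjusted p = 7.62e-07).

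Junb, an AP-1 subunit that is a weaker activator than JUN, was 10.1-fold higher in ExE by edgeR. The E libraries had 14.2, 6.48, 16.8 and 5.92 CPM in wt, 3.72, 4.49, 24.99 and 3.41 CPM in heterozygous and 11.999, 7.81, 24.9 and 5.09 CPM in homozygous embryos. The ExE libraries had 71.6, 105.5, 109.6 and 104 CPM in wt, 128, 109, 102 and 119 CPM in heterozygous and 87.0, 161 and 80.4 CPM in homozygous embryos. The values of 24.99, 24.9 and 161 CPM, the highest of each tissue, belong to the 3 GC-rich libraries, and Junb transcript has a GC content higher than 98.22% of genes. ExE exceeded E by 3.33 ± 0.33 on the log2 scale (edgeR adjusted p = 5.18e-08), and by 3.78 ± 0.20 (7.94e-12) without those 3 libraries. The 3′ end of Junb (chromosome 8, 84974484 to 84978718, minus strand) overlaps that of Prdx2, a peroxiredoxin gene on the other strand, whose reads cannot be told apart there because the strand setting of the counting is not given. Prdx2 went the other way, by -1.01 ± 0.16 on that scale (edgeR adjusted p = 1.78e-05).

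Nr4a1, which encodes a nuclear receptor that acts without a known ligand, differed by nearly as much as Junb. The E libraries had 12.5, 2.53, 7.32 and 3.55 CPM in wt, 4.99, 0.691, 5.98 and 8.54 CPM in heterozygous and 5.16, 4.37, 7.25 and 2.89 CPM in homozygous embryos. The ExE libraries had 32.9, 53.0, 67.1 and 58.0 CPM in wt, 66.3, 43.7, 37.0 and 64.3 CPM in heterozygous and 39.6, 39.4 and 38.5 CPM in homozygous embryos. The tissues did not overlap, and the homozygous ExE pools were close to each other at the low end of the ExE range. The gene lies at 101254269 to 101274795 of chromosome 15 (plus strand). Nr4a1 was higher in ExE by 3.14 ± 0.30 on the log2 scale (edgeR adjusted p = 3.77e-08).

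Dusp1, which dephosphorylates p38, JNK and ERK and so limits the signal that induces it, was the steadiest member. The E libraries had 34.3, 31.3, 22.4 and 20.7 CPM in wt, 26.7, 28.8, 40.1 and 31.1 CPM in heterozygous and 33.2, 33.2, 35.8 and 25.3 CPM in homozygous embryos. The ExE libraries had 74.8, 96.2, 69.2 and 78.5 CPM in wt, 61.0, 58.5, 87.1 and 65.1 CPM in heterozygous and 50.1, 75.0 and 68.7 CPM in homozygous embryos. The highest E pool, heterozygous pool 4, stayed below the lowest ExE pool, homozygous pool 1. Dusp1 was higher in ExE by 1.22 ± 0.13 on the log2 scale (edgeR adjusted p = 8.82e-08). In the GENCODE model the Dusp1 gene spans 26505590 to 26562128 of chromosome 17 and meets Ergic1 on the other strand, which differed in the opposite direction (log2 fold change -1.23 ± 0.12, edgeR adjusted p = 4.15e-08).

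Egr1, a zinc-finger factor induced by ERK (chromosome 18, 34859823 to 34864984, plus strand), was higher in ExE with overlap. The E libraries had 0.131, 0, 0.814 and 2.22 CPM in wt, 2.97, 0, 6.69 and 0 CPM in heterozygous and 2.24, 0.104, 2.42 and 0.339 CPM in homozygous embryos. The ExE libraries had 0.960, 8.53, 8.55 and 8.25 CPM in wt, 5.59, 4.30, 8.37 and 10.4 CPM in heterozygous and 5.27, 6.38 and 8.31 CPM in homozygous embryos. The overlap comes from ExE wt pool 1, which was low, and E heterozygous pool 4, which was high. The log2 fold change for Egr1 was 2.34 ± 0.69 (edgeR adjusted p = 0.00816), and 2.91 ± 0.76 (0.00297) without the 3 GC-rich libraries.

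Jun, the classical partner of FOS in AP-1, was lower in ExE. The E libraries had 13.1, 14.4, 16.4 and 10.9 CPM in wt, 7.97, 18.8, 11.6 and 13.3 CPM in heterozygous and 15.6, 15.6, 24.0 and 9.67 CPM in homozygous embryos. The ExE libraries had 10.1, 6.31, 9.38 and 6.62 CPM in wt, 9.42, 1.43, 5.25 and 10.9 CPM in heterozygous and 11.1, 1.60 and 9.44 CPM in homozygous embryos. The tissues overlapped between 7.97 and 11.1 CPM, and ExE heterozygous pool 2 and homozygous pool 3 lay far below the rest. The log2 fold change of Jun was -0.94 ± 0.30 (edgeR adjusted p = 0.0139). With the level of maternal decidua markers as a covariate it was -0.94 ± 0.41 (edgeR adjusted p = 0.0672). The fold was unchanged and its SE larger, so the call was lost. Some of those markers were themselves lower in ExE, so this fit cannot separate decidua from tissue. Jun is a single-exon gene on chromosome 4 (95049034 to 95052222, minus strand) and shares bases with the antisense RNA gene Junos, so reads of either cannot be told apart without the strand.

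Jund and Ier2 were the most abundant members per length and differed little. Both are single-exon genes of chromosome 8, Jund at 70698949 to 70700616 (plus strand) and Ier2 at 84661331 to 84662852 (minus strand). Jund, the AP-1 subunit that is expressed without stimulation in many cells, had a lowest, median and highest level of 75.4, 99.2 and 209 CPM in E and 46.6, 75.1 and 202 CPM in ExE. Its 3 highest values, 209, 196 and 202 CPM, are the 3 GC-rich libraries, 2.10, 2.36 and 2.95 times the mean of the other pools of their groups, and the Jund transcript has a GC content of 67.15%, higher than 99.56% of genes. The log2 fold change of Jund over all libraries was -0.38 ± 0.22 (edgeR adjusted p = 0.167), which missed the threshold, and it passed without the 3 libraries (-0.38 ± 0.14, adjusted p = 0.0332), without ExE homozygous pool 3 alone (-0.61 ± 0.20, adjusted p = 0.0169) and with the pool number as a block (-0.34 ± 0.12, adjusted p = 0.0315). Ier2 ranged over 93.6 to 230.0 CPM in E (median 116) and 64.1 to 176 CPM in ExE (median 81.2), again highest in the same 3 libraries. On the log2 scale ExE stood at -0.45 ± 0.17 against E (edgeR adjusted p = 0.0312). That call was lost without ExE wt pool 1 (adjusted p = 0.0525), E heterozygous pool 4 (0.0704), E homozygous pool 3 (0.0783), ExE homozygous pool 1 (0.0806) or ExE homozygous pool 4 (0.0732), each left out alone, and with the decidua level as a covariate (-0.21 ± 0.16, adjusted p = 0.287). The limit given for that covariate under Jun holds here too.

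Atf3, a stress-induced repressor of the ATF family (chromosome 1, 191170296 to 191218039, minus strand), was scarce in both tissues. It ranged from 0 to 1.498 CPM in E and from 0 to 1.76 CPM in ExE, with 5 libraries at 0 in each tissue and 101 counts in all. The difference of 0.51 ± 0.97 on the log2 scale (edgeR adjusted p = 0.701) leaves a difference of either sign within its error. Fosb (chromosome 7, 19302696 to 19310051, minus strand), the other FOS-family member here, had 4 counts in the 12 E libraries and 6 in the 11 ExE libraries, too few for a fold.

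**Figure D2:**
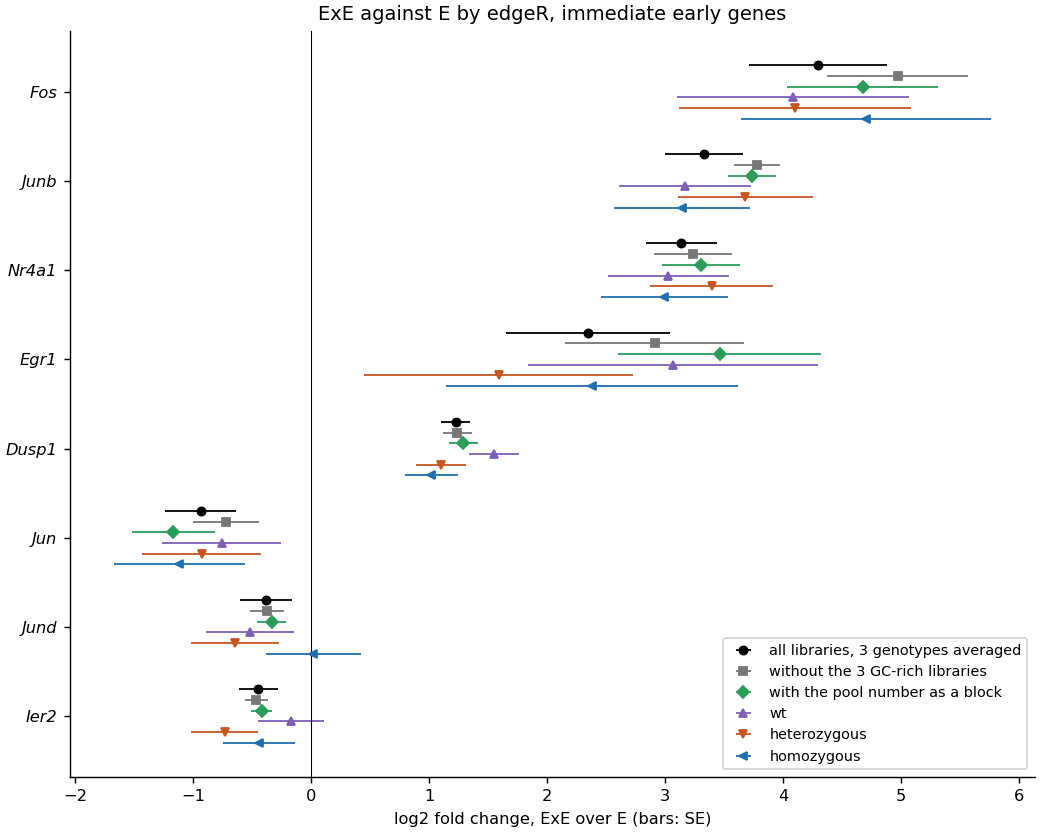
Log2 fold change of ExE over E with its standard error (horizontal bars) for 8 members, by edgeR over all libraries, in 2 alternative fits and within each genotype. Fos, Junb, Nr4a1 and Dusp1 lie right of 0 in every fit shown, Jun and Ier2 left of 0, and Jund in the homozygous fit sits at 0.02 ± 0.40.

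Within each genotype the same 4 members passed the threshold. Fos, Junb, Nr4a1 and Dusp1 were called higher in wt, in heterozygous and in homozygous embryos, where 9.28%, 12% and 9.12% of genes were called higher. No member was called lower, against 7.98%, 14.9% and 7.66% of genes in the same order, so that 4 of 9 members were called in comparisons that called 17.3%, 27% and 16.8% of genes. The log2 fold change of Fos was 4.08 ± 0.98, 4.10 ± 0.98 and 4.70 ± 1.06 in wt, heterozygous and homozygous embryos (edgeR adjusted p = 0.00636, 0.00344 and 0.00462). Junb gave 3.17 ± 0.56, 3.68 ± 0.57 and 3.14 ± 0.58 on the same log2 scale (edgeR adjusted p = 0.000609, 7.14e-05 and 0.00103). Nr4a1 gave 3.03 ± 0.51, 3.39 ± 0.52 and 2.99 ± 0.54 (edgeR adjusted p = 0.000416, 6.33e-05 and 0.000876). For Dusp1 the values were 1.55 ± 0.21, 1.10 ± 0.21 and 1.02 ± 0.23 (edgeR adjusted p = 7.07e-05, 0.00052 and 0.00412). Egr1 was higher by 3.06 ± 1.23, 1.59 ± 1.14 and 2.38 ± 1.24, which missed the threshold in each genotype (edgeR adjusted p = 0.0917, 0.334 and 0.198). Egr1 passed in wt by DESeq2 (adjusted p = 0.0405) and by limma-voom in wt (0.0381) and heterozygous embryos (0.018). Ier2 passed in heterozygous embryos by DESeq2 (adjusted p = 0.0351) and, without the 3 GC-rich libraries, in heterozygous (0.0132) and homozygous (0.0121) embryos.

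In 10 cases an E and an ExE library carry the same pool number within a genotype, which per the labels mostly means the same litters. Fos, Junb, Nr4a1, Egr1 and Dusp1 were higher in ExE in 10 of 10 such pairs, and Jun was lower in 10 of 10. The median difference in log2 CPM was 4.26 for Fos (2.54 to 6.67), 3.94 for Junb (2.31 to 5.02), 3.11 for Nr4a1 (1.38 to 5.30), 2.41 for Egr1 (0.50 to 5.39) and 1.28 for Dusp1 (0.59 to 1.91). For Jun it was -0.75 (-3.71 to -0.03). Ier2 was lower in 8 pairs and Jund in 7, so these members were less uniform. With the pool number as a block in edgeR the log2 fold changes were 4.67 ± 0.64 for Fos, 3.73 ± 0.20 for Junb, 3.30 ± 0.33 for Nr4a1, 3.46 ± 0.86 for Egr1 and 1.29 ± 0.12 for Dusp1. With that block Ier2 also passed the threshold in heterozygous (adjusted p = 0.0408) and homozygous (0.0249) embryos.

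**Figure D3:**
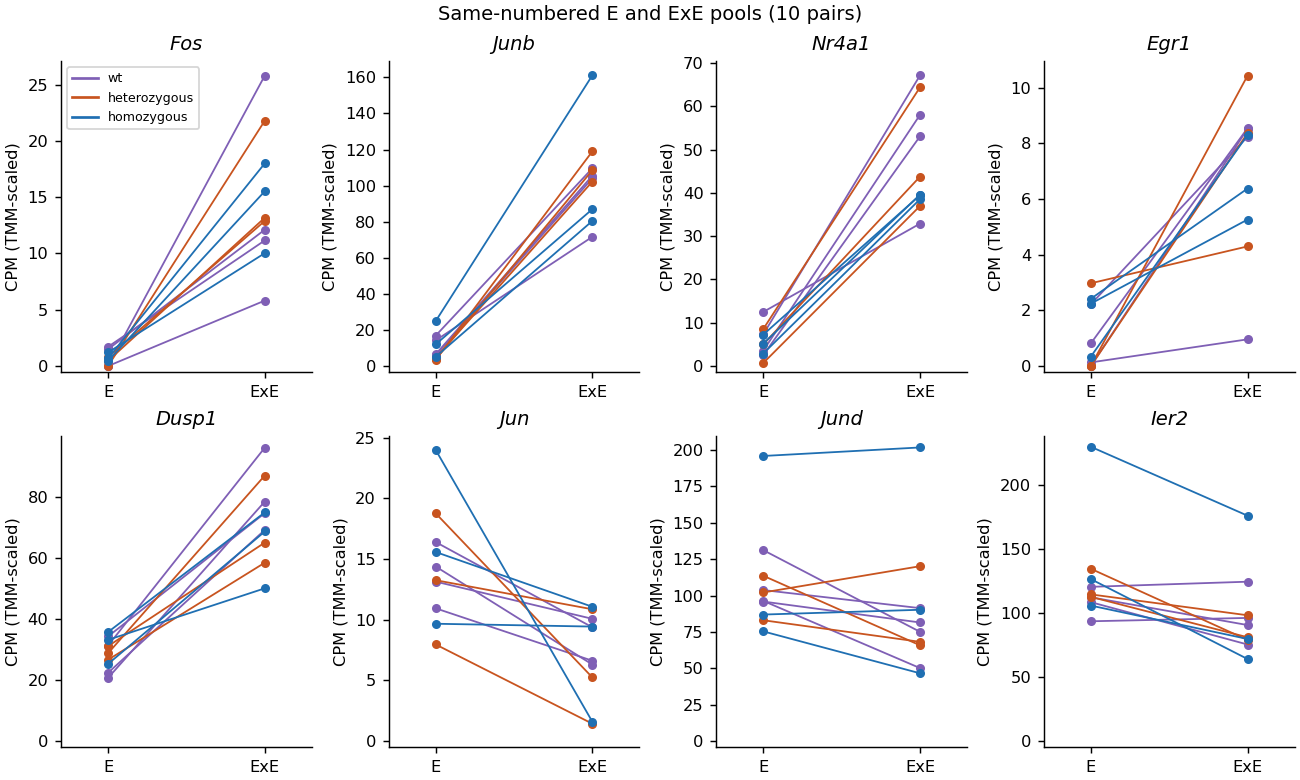
Level of 8 members in E and ExE libraries that carry the same pool number, in TMM-scaled CPM (vertical axes, linear), with a line for each of the 10 pairs, coloured by genotype. The lines for Fos, Junb, Nr4a1, Egr1 and Dusp1 all rise, those for Jun all fall, and those for Jund and Ier2 go both ways.

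Divided by the exon length of the gene, the order of the members differed between the tissues. Dusp1 has 6 transcript models and Fosb 7, while Jun, Jund and Ier2 have 1. For genes with several models the length used may exceed that of the transcript present, so the order across members is approximate. In E the mean levels in CPM per kilobase were 86.5 for Ier2, 68.9 for Jund, 9.13 for Dusp1, 4.70 for Junb, 4.48 for Jun, 1.56 for Nr4a1, 0.340 for Fos, 0.333 for Egr1, 0.222 for Atf3 and 0.00871 for Fosb. In ExE they were 62.5 for Ier2, 52.3 for Jund, 46.5 for Junb, 21.5 for Dusp1, 13.99 for Nr4a1, 6.37 for Fos, 2.32 for Jun, 1.52 for Egr1, 0.307 for Atf3 and 0.0110 for Fosb. Neighbours such as Ier2 and Jund, with SDs of 27.3 and 26.0 CPM per kilobase in E, and Junb and Jun in E, with SDs of 3.41 and 1.35, did not differ beyond their spread. Jun thus stood above Fos in E and below it in ExE. Per length, Junb was the third member in ExE, next to Jund within its SD of 10.6 CPM per kilobase.

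The members differed in how much they varied between pools of a group. The within-group SD of log2 CPM was 1.504 for Egr1, larger than in 97.5% of genes tested, 1.302 for Atf3 and 1.12 for Fos, genes with few reads in E. Nr4a1, Jun and Junb had SDs of 0.81, 0.80 and 0.79, and Jund had 0.57, equal to the median of all genes. Ier2 at 0.41 and Dusp1 at 0.27, the latter larger than in only 12.4% of genes, were steady. For Fos, Junb and Nr4a1 the SD was 1.42, 1.03 and 1.05 in E and 0.61, 0.34 and 0.37 in ExE, while Jun went the other way, with 0.44 in E and 1.07 in ExE.

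No member was called between genotypes in either tissue. In homozygous against wt embryos 0 of 7 members tested were called in E, where edgeR called 0.0161% of 12405 genes, and 0 of 9 in ExE, where it called 0% of 12355 genes. In heterozygous against wt embryos 0 of 7 and 0 of 9 were called, again beside 0% of genes in E and in ExE. No member reached an unadjusted p under 0.05 in these 4 comparisons, against 520, 935, 298 and 510 genes in the order given, and DESeq2 and limma-voom also called 0 members. Fos, Atf3 and Fosb did not pass the count filter in E.

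The group levels show what these tests could see. Mean Junb in ExE was 97.7 ± 17.5 CPM in wt (SD, n = 4), 114 ± 11.2 in heterozygous (n = 4) and 109.5 ± 44.8 in homozygous pools (n = 3). Mean Fos in ExE was 13.7 ± 8.52, 16.6 ± 4.31 and 14.5 ± 4.08 CPM in the same order, and mean Dusp1 was 79.7 ± 11.7, 67.9 ± 13.1 and 64.6 ± 12.9 CPM. Nr4a1 was at 52.8 ± 14.5, 52.8 ± 14.7 and 39.2 ± 0.567 CPM, and its difference in homozygous ExE, -0.44 ± 0.28 on the log2 scale, was the lowest of the 9 members there. At the other end was Jund in homozygous ExE, at 0.56 ± 0.38, with pools of 90.2, 202 and 46.6 CPM against 50.2 to 91.3 in wt. Without the GC-rich pool of 202 CPM that difference was -0.13 on the log2 scale. In E the largest differences were those of Egr1, 0.69 ± 1.53 in homozygous and 1.59 ± 1.53 in heterozygous pools, and the lowest those of Nr4a1, -0.39 ± 0.66 and -0.36 ± 0.66, all within about 1 SE. In heterozygous ExE the range ran from Jun at -0.24 ± 0.61 to Atf3 at 0.57 ± 1.57.

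Nor did the genotype effect of any member differ between the tissues. Of the 9 members tested, 0 were called for the difference in either genotype, where edgeR called 0% of 13595 genes, with 416 (homozygous) and 716 (heterozygous) genes but 0 members at an unadjusted p under 0.05. DESeq2 and limma-voom called 0 members as well. The difference in the homozygous effect, ExE minus E, ran from -0.89 ± 2.44 for Atf3 to 0.61 ± 1.37 for Fos on the log2 scale. In the heterozygous effect it ran from -1.47 ± 1.62 for Egr1 to 0.51 ± 0.74 for Junb. With errors of this size, differences of several-fold for Fos, Egr1 and Atf3 lie within the error.

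Other genes of the pathway were taken from lists of the same class. Of 38 further immediate early genes 33 were tested, and 18 were higher and 7 lower in ExE (median log2 fold change 1.06, against -0.02 over all genes). That is 54.5% higher and 21.2% lower, beside 22.1% and 23.9% of all genes, so the share lower was near the background. By smallest p among the called genes they were led by Errfi1, a feedback inhibitor of EGF receptors (37.3 ± 8.81 to 127.6 ± 25.3 CPM, log2 fold change 1.78 ± 0.15), and Plk3, a stress-responsive kinase (13.3 ± 6.88 to 65.2 ± 11.5 CPM, 2.32 ± 0.20). Among the falls were Zfp36l2, an RNA-destabilising protein (-1.27 ± 0.12), and Sgk1, a serum-induced kinase (-2.51 ± 0.24, from 174 ± 39.1 to 33.3 ± 24.96 CPM). Of the 12 AP-1 partners tested, 7 were higher and 2 lower (58.3% and 16.7%, median 0.96). Fosl2, another FOS-family subunit, went from 1.49 ± 1.42 CPM in E to 15.6 ± 3.67 CPM in ExE (3.46 ± 0.40), and Fosl1, also of that family, from 0.0810 ± 0.166 to 2.23 ± 0.884 CPM (4.76 ± 0.76). Mafk, a small MAF factor (1.76 ± 0.20), and Batf3, a BATF-family partner of JUN proteins (2.54 ± 0.42), were higher as well. SDs are over 12 E and 11 ExE libraries, and the edgeR adjusted p of each gene named here was 3.37e-05 or less.

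The kinases and transcription factors upstream of these genes were called about as often as other genes. Of 19 upstream regulators 6 were higher and 2 lower (median 0.14), a share of 42.1% called beside 46.1% of all genes. By direction 31.6% were higher and 10.5% lower, beside 22.1% and 23.9% of all genes. Mapk3, which encodes ERK1, was lower in ExE (117 ± 21.1 to 37.7 ± 17.1 CPM, log2 fold change -1.65 ± 0.19), while Map2k1, which encodes the ERK kinase MEK1 (0.66 ± 0.11), Mapk14, which encodes p38 alpha (0.71 ± 0.10), and its target Mapkapk2 (1.26 ± 0.18) were higher. Of 12 genes that ERK induces as feedback, 3 were higher and 6 lower (25% and 50%, median -0.42), beside 22.1% and 23.9% of all genes. Etv5, an ETS factor that ERK signalling induces, fell from 420 ± 73.6 CPM in E to 134 ± 49.3 CPM in ExE (-1.70 ± 0.14), with Dusp4 (-1.88 ± 0.27) and Il17rd (-1.62 ± 0.32), inhibitors of the pathway, also lower. Phlda1, another gene of this list, was higher (2.48 ± 1.68 to 13.4 ± 2.72 CPM, 2.47 ± 0.33). The edgeR adjusted p was 0.000227 or less for each.

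Stress genes were set beside the members because handling can induce both. Of 15 heat shock genes 5 were higher and 3 lower in ExE (median 0.07). That is 33.3% higher and 20% lower, beside 22.1% and 23.9% of all genes. Hspa1a and Hspa1b, the inducible HSP70 genes, were among those higher, at 12.98 ± 7.93 and 40.7 ± 21.1 CPM for Hspa1a in E and ExE (log2 fold change 1.67 ± 0.29) and 16.8 ± 8.30 and 56.5 ± 26.5 CPM for Hspa1b (1.77 ± 0.26). The small heat shock gene Hspb1 (1.55 ± 0.27) and the cochaperone gene Bag3 (1.03 ± 0.15) were higher too, with edgeR adjusted p of 7.58e-05 or less for the 4. The 3 lower were Dnajb4 (-1.94 ± 0.61), Hspa4l (-0.94 ± 0.34) and Hsp90ab1 (-0.16 ± 0.05). Hspa1a and Hspa1b are near-identical copies whose reads the counting could divide, so each value is uncertain. The summed level of the 15 genes ran from 12582 to 18481 CPM in E and from 12337 to 18831 CPM in ExE. All 15 were detected in each tissue, and the sum was lowest in the 3 GC-rich libraries. In sums of this size the rises of Hspa1a and Hspa1b cannot be seen. Of 15 integrated stress and unfolded protein genes 4 were higher and 5 lower (26.7% and 33.3%, median -0.26), beside the same shares of all genes. Asns, asparagine synthetase, was at 105 ± 23.9 CPM in E and 332 ± 58.6 CPM in ExE (1.64 ± 0.12). Hmox1, heme oxygenase, was at 55.1 ± 25.7 CPM in E and 272 ± 77.3 CPM in ExE (2.31 ± 0.22), and Herpud1, an endoplasmic reticulum stress gene, was lower (-1.62 ± 0.22). Psat1, a serine synthesis gene, was higher by 0.46 ± 0.10, with edgeR adjusted p of 0.000585 or less for these 4. The summed level of that list was 1442 to 2306 CPM in E and 1821 to 2890 CPM in ExE. Whether stress during dissection had a part in the difference of Fos, Junb, Nr4a1, Egr1 and Dusp1 was not tested.

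**Figure D4:**
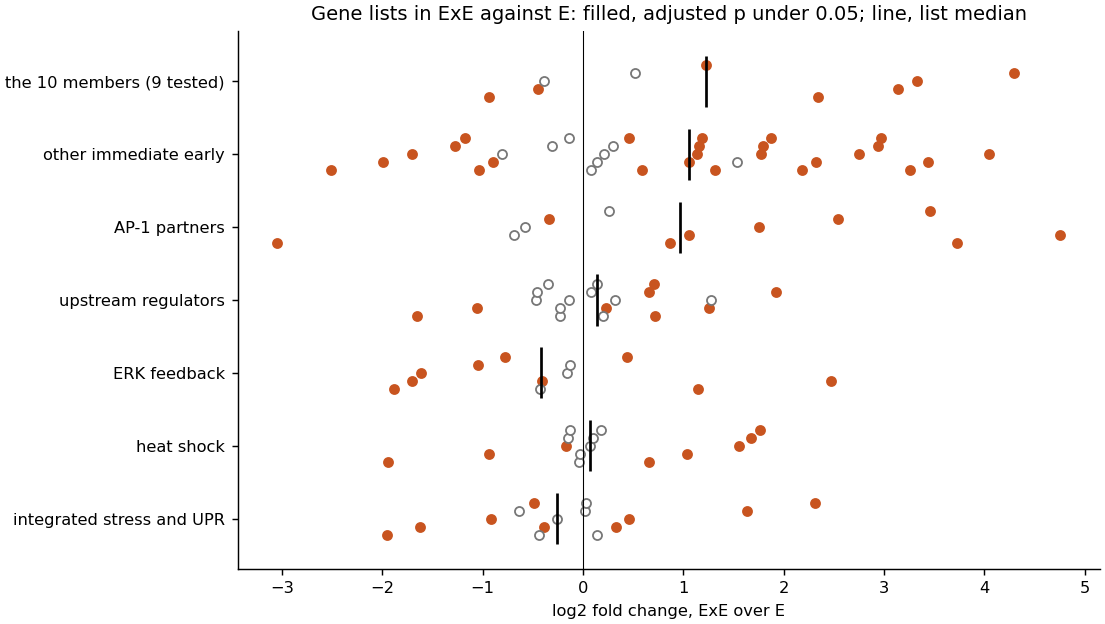
Log2 fold change of ExE over E (horizontal axis) for every tested gene of the 10 members and of 6 lists of related genes. Filled points had an edgeR adjusted p under 0.05, open points did not, and the vertical line is the list median, which was 1.22 for the members, 1.06 for other immediate early genes and 0.07 for heat shock genes.

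Some lists of cell type markers also moved with the tissue. Over all genes 22.1% were called higher and 23.9% lower in ExE. Visceral endoderm markers were at 15% and 25%, and decidua markers at 0% and 30.8%. The share of these lists called in either direction, 40% and 30.8%, was thus below the 46.1% of all genes. All 14 extra-embryonic ectoderm markers were higher in ExE (14 of 14 called, median 4.16), at a summed 149 to 836 CPM in E and 2548 to 4152 CPM in ExE. Ectoplacental cone and giant cell markers (5 of 7 tested higher and 1 lower) summed to 12.96 to 366 CPM in E and 564 to 1730 CPM in ExE, with Tpbpa, a defining gene of the cone, at 0 counts in every ExE library. Visceral endoderm markers (3 of 20 higher, 5 lower) summed to 291 to 1970 CPM in E and 1551 to 2590 CPM in ExE. A large part of the ExE sum was Rhox5, at 70.3 ± 81.3 CPM in E and 1111 ± 164 CPM in ExE. Rhox5, one of the 3 higher, is shared with the extra-embryonic ectoderm list. Apoe, another, was at 295 ± 172 CPM in E and 658 ± 191 CPM in ExE. The 5 lower were Foxa2, Gata6, Sox17, Dab2 and Lrp2. Blood and endothelium markers (4 of 5 tested higher, 0 lower) summed to 2.77 to 27.6 CPM in E and 7.32 to 42.2 CPM in ExE. The 4 higher were Hba-a2, Hbb-bs, Hbb-bt and Kdr (log2 fold changes 1.85, 3.60, 4.22 and 5.12). Ptprc, which marks leukocytes and was not among those tested, was at 0 counts in every ExE library. Decidua markers (0 of 13 higher, 4 lower) summed to 77.4 to 145 CPM in E and 10.4 to 64.1 CPM in 10 of the ExE libraries, and to 309 CPM in ExE homozygous pool 3, where the decidual prolactin Prl8a2 was at 175 CPM. Epiblast markers (1 of 12 higher, 10 lower) and primitive streak markers (2 of 11 higher, 8 lower) were mostly lower in ExE. With the decidua or visceral endoderm level as a covariate Fos, Junb, Nr4a1, Egr1 and Dusp1 remained called. Both lists hold markers that differed between the tissues, so these fits cannot separate the tissue from other cells in it.

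The few Fos and Junb reads in E were set beside extra-embryonic transcripts in the same libraries. Per E library the median of the 14 extra-embryonic ectoderm markers stood at 0.362% to 19.8% of its ExE mean, and Fos at 0% to 18.8% of its own. In E heterozygous pool 4, where the markers were highest at 19.8%, Fos was at 18.8% and Junb at 23.4% of the ExE mean. In E wt pool 2, where the markers were lowest at 0.362%, Fos had no count and Junb was at 6.06%. E wt pools 1 and 4, with markers at 11.2% and 8.39%, had Fos at 11.4% and 9.96%. Other libraries departed from equal shares: E homozygous pool 1 had markers at 8.20% and Fos at 3.00%, while homozygous pool 4 had 1.23% and 4.53% and heterozygous pool 5 had 1.86% and 5.26%. Averaged over the 12 E libraries, the markers had a median of 5.65% of their ExE means (1.12% to 36.3%), Fos 5.34%, Junb 10.1%, Nr4a1 11.2%, Egr1 21.9% and Dusp1 42.4%. Dusp1 was at 29.0% to 56.3% in every E library, including those with markers near 1%. The deviations of Fos from its group means correlated with those of Cdx2 at r = 0.94 over the 12 E libraries, 0.91 over the 10 that are not GC-rich and 0.32 over the 11 ExE libraries, a description of libraries that share depth and composition. The values for Junb and Cdx2 were 0.85, 0.83 and 0.73, and for Nr4a1 and Cdx2 0.63, 0.58 and 0.34. With Elf5, another marker of the list, they were 0.90, 0.86 and 0.38 for Fos. For Junb and Elf5 they were 0.80, 0.68 and 0.28, and for Nr4a1 and Elf5 0.58, 0.53 and 0.65. The ExE values of Junb and Nr4a1 thus depended on the marker. Cdx2 and Elf5 are among the genes most like Fos over all libraries, and values for the other markers are not given. The part of extra-embryonic RNA in the E levels was not tested.

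**Figure D5:**
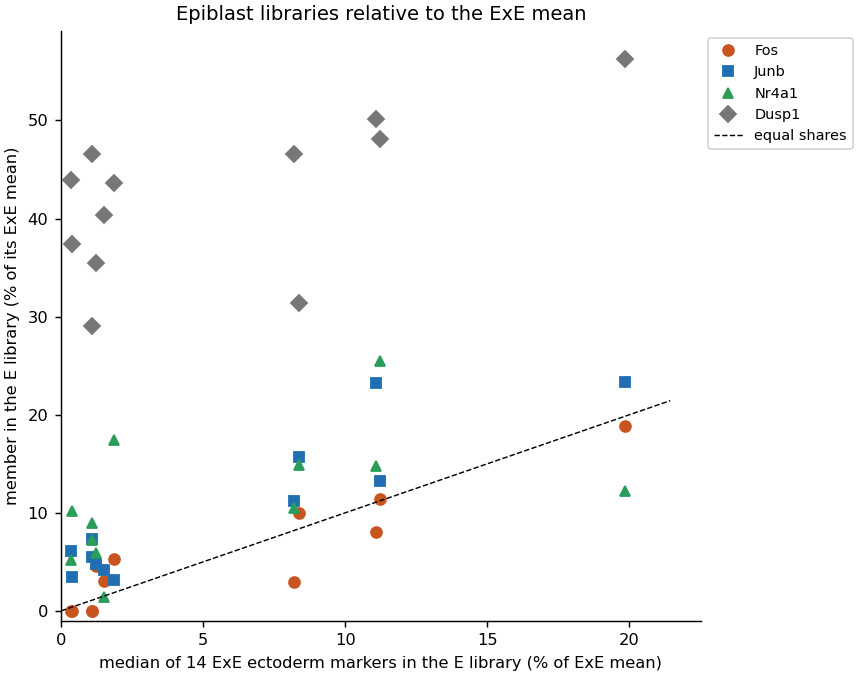
Each of the 12 E libraries placed by the median level of 14 extra-embryonic ectoderm markers (horizontal axis, percent of the ExE mean) and by the level of Fos, Junb, Nr4a1 or Dusp1 (vertical axis, percent of its ExE mean), with a dashed line at equal shares. Fos points run from 0% to 18.8% on both sides of the line, while Dusp1 points lie at 29.0% to 56.3% whatever the marker level.

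Members were then compared with each other across pools. In E the deviation of Fos from its group mean in log2 CPM correlated with that of Junb at Pearson r = 0.75 (n = 12, two-sided permutation p = 0.00519, 0.0467 adjusted over 9 relations) and Spearman rho = 0.57 (permutation p = 0.0577, adjusted 0.161). Leaving out the 2 libraries farthest from the Fos median gave r = 0.65. This was the 1 relation of 9 past the threshold in E, it was no longer past it without the GC-rich libraries, and its Fos values rest on 0 to 16 reads. Over the 11 ExE libraries the 9 values of r for Fos ran from -0.34 to 0.057, with 0 past the threshold (lowest adjusted permutation p = 0.994) and 0 at an unadjusted p under 0.05.

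Among 8864 genes of sufficient level, those whose deviations from the group means over all 23 libraries were most like those of Fos were Sox21 and Cdx2 (r = 0.88 each), Gprc5a and Ahnak (0.86), Elf5 (0.85), and Sfmbt2, Perp and Kcnk6 (0.83). Cdx2 and Elf5 encode trophoblast transcription factors. Among those most like Jund were Spr, Crb3 and Cyth2 (0.93) and Pcbp1, Gsk3a, Pgls and Fam104a (0.92). These 7 transcripts have a GC content of 51.8% to 59.8%. The values describe shared variation between libraries, including that of depth and composition.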

How the data were processed

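The deposited data are a single table of unnormalised whole-number counts for genes in the 23 libraries. Per the labels' protocols, cDNA from 1 to 10 ng of pooled RNA was amplified with a SMARTer kit and read as single 75-bp reads. Per the submitters' processing notes and the design text, the tools were cutadapt 1.7.1, FastX 0.0.13, ShortRead 1.16.3 and TopHat2 2.0.12, with mouse build mm10 (GRCm38). The sources used here do not name the counting tool, annotation or strand setting. Of 23725 lines, 27 held symbols turned into dates, 4 shared a symbol with another line and 0 lacked a name. Reads were amplified and carry no molecular identifiers, so they do not stand for independent molecules.

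The counts were tested with edgeR 4.0.16 (R 4.3.3): filterByExpr (minimum count 10, minimum total 15), TMM scaling, glmQLFit and glmQLFTest, two-sided, with Benjamini-Hochberg adjustment over all genes tested and a threshold of 0.05. All 23 libraries entered 1 fit for the tissue comparison and for the difference of genotype effects between tissues. The libraries of each tissue entered 1 fit for genotype. Log2 fold changes use a prior count of 0.125 and are given ± SE, and log2 CPM values use a prior count of 2. The SE is the size of the log2 fold change over the square root of the F of the test, so it is no separate estimate. It can be far off: for a visceral endoderm marker it was 6411 beside a log2 fold change of -1.58. The SEs of genes with few reads, such as Fos in E, Egr1 and Atf3, are therefore approximate. The analysis was tested on simulated data for the averaged tissue comparison with 13213 genes. There 71% of genes changed 2-fold and 97% of those changed 4-fold were recovered. The changed genes were drawn only from genes with higher mean counts than Egr1 or Atf3 have, so these shares do not cover genes of so few reads. A replicate is a pool, and p-values measure the spread between pools. All 33 pairs of libraries of a group differed by more than counting noise (chi-square over degrees of freedom, 12.3 to 118).

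Per the labels, same-numbered E and ExE pools of a genotype came from the same litters in 3 of 4 replicates, which pairs them. The correlation of their deviations from the group means was -0.10 to 0.19 in wt, -0.12 to 0.16 in heterozygous and 0.37 to 0.74 in homozygous embryos. Same-numbered wt and heterozygous E pools correlated at 0.23 to 0.42 in all 3 pairs. The main fits did not use the pool number, and only the alternative with it as a block treated same-numbered pools as paired. Alternatives were DESeq2 1.42.0, limma-voom (limma 3.58.1), RLE scaling, no filter, the pool number as a block (within genotype for tissue, across genotypes for genotype), decidua or visceral endoderm level as a covariate, a prior count of 0.5, leaving out the 3 GC-rich libraries and leaving out each library in turn.

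The members and the gene lists were chosen with earlier results of these data known. Genes named are the 10 members, up to 4 members of smallest p in ExE against E of each list of related genes, and the 8 genes most like Fos or Jund by Pearson correlation among genes whose log2 CPM averaged 3 or more, of which 1 is not reported here. The cell type lists were described by their sums. Pou5f1, Cdx2, Tpbpa, Ptprc, Prl8a2, Rhox5 and Apoe were named after their values were seen. So were the called blood and endothelium genes, and the visceral endoderm and heat shock genes called lower. Gene positions are from GENCODE M21, where 22535 genes (94.98%) and all 10 members were matched by symbol. Promoter sequences are from RefSeq, with 8 of the 10 members matched.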

Additional observations from a re-analysis of the deposited data

Results flagged for a closer look

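In 45 sets of 4 libraries of a group, each holding the log2 CPM of a member, 6 had a library whose gap to the nearest other was large for the group's range, and chance gives about 1 in 20. Groups of 3 were not checked. In ExE wt pool 1, Egr1 was at 0.960 CPM against 8.25 to 8.55 CPM in the other wt ExE pools, and Junb at 71.6 CPM against 104 to 109.6 CPM. In E heterozygous pool 4, Junb was at 24.99 CPM against 3.41 to 4.49 CPM in the other pools of the group. In E homozygous pool 3, Jund was at 196 CPM against 75.4 to 87.2 CPM. These last 2 are GC-rich libraries. In ExE heterozygous pool 3, Jund was at 120.1 CPM against 65.8 to 69.5 CPM, and in ExE heterozygous pool 5 Ier2 was at 98.3 CPM against 79.0 to 81.2 CPM.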

How the results depend on the processing

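The tissue calls of Fos, Junb, Nr4a1 and Dusp1, averaged over genotypes and within each, were kept under every alternative run, and Egr1 kept its averaged call. Over the alternatives that keep all libraries or leave out the 3 GC-rich ones, 81 of the summary counts stayed within 1.5 times and 2 did not, and of the values of single genes 330 kept direction and side of the threshold, 10 came to pass it, 2 came to miss it and 18 changed sign. Those 2 were the averaged Ier2 and Jun with the decidua covariate, at -0.21 and -0.94. With 1 library left out, 524 values of single genes kept direction and side, 5 came to miss the threshold (all the averaged Ier2, -0.42 to -0.33), 2 came to pass it (the averaged Jund and Ier2 in homozygous embryos, both without ExE homozygous pool 3) and 12 changed sign. Leaving out 1 library in turn gave 6 to 8 members called in the averaged tissue comparison. Within genotypes it gave 4 in wt, 4 in heterozygous and 4 to 5 in homozygous embryos. In every genotype comparison and interaction it gave 0. The share of all genes called in these fits is not given, so the counts are not set against it.

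With the replicate block of pool number within genotype, 8 members were called in the averaged tissue comparison against 7. Within genotypes 4 were called in wt, 5 in heterozygous and 5 in homozygous embryos, and 0 in the differences of genotype effects. The share of all genes called with that block is not given here. A rise in members called therefore cannot be told from a rise in calls over all genes. With the pool number as the block in the genotype comparisons within a tissue, 0 members were called, as without it. Whether same-numbered pools of different genotypes share litters was not tested. Apart from wt and heterozygous E, they correlated at -0.12 to -0.01 in ExE for wt and heterozygous. For wt and homozygous they correlated at -0.32 to 0.26 in E, with 2 of 3 pairs over 0.1, and at -0.35 to -0.13 in ExE. Heterozygous and homozygous pools were not compared.

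All values that changed sign were of members that did not pass the threshold. The averaged Atf3 difference was -0.0018 with the visceral endoderm covariate, -0.15 with the decidua covariate and -1.24 to 0.97 with a library left out. Ier2 in wt was 0.27 with the decidua covariate. Jund in homozygous embryos was -0.014 by DESeq2, -0.19 by limma-voom, -0.015 with RLE scaling, -0.19 with the replicate block, -0.29 without the 3 GC-rich libraries, -0.17 with the decidua covariate and -0.69 to 0.45 with a library left out. In homozygous against wt ExE it was -0.072 with the replicate block, -0.13 without the GC-rich libraries, -0.36 with the decidua covariate and -0.13 to 0.92 with a library left out. Nr4a1 in homozygous E was 0.020 with the replicate block and -0.67 to 0.14 with a library left out. In heterozygous E it was 0.37 with the visceral endoderm covariate and -0.74 to 0.17. Egr1 in homozygous E was -0.77 with the decidua covariate, and its heterozygous difference between tissues 0.037 by limma-voom and 1.22 with the replicate block. The homozygous difference between tissues was -0.20 for Fos with the replicate block, -0.070 to 1.24 with a library left out, and for Atf3 -6.18 to 0.15. Jun in heterozygous ExE was -0.56 to 0.086. The cause of these shifts was not tested. The number of Fos relations past the threshold in E was 0 without the GC-rich libraries and 0 with a prior count of 0.5, against 1. Depth limits Fosb and Atf3 in both tissues and Fos and Egr1 in E, where several libraries had no count.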
